A study of Homo sapiens with 20 samples.

Results

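Depletion of the splicing factor SRSF2 in HEK293T cells was examined through the splicing events that the authors listed as differing from cells given a non-targeting siRNA. All 2738 events in their table for this comparison were used, of 19275 distinct events over the 7 tables of the study. HEK293T is a transformed human embryonic kidney line that carries the SV40 large T antigen. The study has 20 samples in 10 groups of 2, and it set depletions of splicing factors beside inhibition of the kinase Aurora-A by MLN8237. The control group, siNT1, received a non-targeting siRNA, and the siSRSF2 group an siRNA against SRSF2. Each group had 2 samples, sequenced as stranded mRNA libraries 48 hours after transfection in the same experimental set. The authors gave percent spliced in (PSI), the percent of a gene's transcripts that contain a segment, as 1 mean per group. No replicate values, SD or read depth stand behind the PSI values here, so no change was tested. Whether 2 samples of a group were separate cultures is not stated in the labels. SRSF2 mRNA and markers of the cell line were not analysed here, so the depletion itself was not checked.

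SRSF2, also called SC35, is an SR protein. Its RNA recognition motif binds short C-rich or G-rich sequences in exons, written CCNG and GGNG with N for any base, and its arginine- and serine-rich tail recruits the splicing machinery to the neighbouring splice sites. Bound SRSF2 usually promotes inclusion of the exon. The gene is recurrently mutated in myeloid neoplasms, where the altered protein shifts its preference between the C-rich and G-rich motifs.

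The sequences below show 3 coding exons from among the largest losses, 4 from among the largest gains, and an exon of INTS3 whose flanking introns were also listed. The choice took cassette exons, over 27 and up to 200 bases long, that match 1 annotated exon, and not all that qualify are shown. Capitals mark matches to CCNG or GGNG on the transcript strand, and overlapping or adjoining matches run together. Positions are on GRCh38 from GENCODE release 29, matched by gene and exon length, and are not the authors'.
TMEM145, chr19:42317709-42317881, plus strand: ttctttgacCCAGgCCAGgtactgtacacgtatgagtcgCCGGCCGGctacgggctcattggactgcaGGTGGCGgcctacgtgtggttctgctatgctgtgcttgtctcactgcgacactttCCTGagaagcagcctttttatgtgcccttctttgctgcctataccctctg
OGFOD2, chr12:122975811-122975867, plus strand: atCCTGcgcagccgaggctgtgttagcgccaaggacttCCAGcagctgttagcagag
SEC16A, chr9:136463463-136463601, minus strand: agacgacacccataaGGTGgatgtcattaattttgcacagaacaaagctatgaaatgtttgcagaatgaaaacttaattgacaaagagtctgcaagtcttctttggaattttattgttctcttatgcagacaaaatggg
STXBP5, chr6:147339179-147339238, plus strand: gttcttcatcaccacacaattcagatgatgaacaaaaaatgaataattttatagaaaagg
STXBP5, chr6:147339337-147339384, plus strand: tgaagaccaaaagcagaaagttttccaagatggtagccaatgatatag
PLOD2, chr3:146077862-146077924, minus strand: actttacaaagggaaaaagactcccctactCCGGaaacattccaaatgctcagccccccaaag
GTDC1, chr2:143957195-143957339, minus strand: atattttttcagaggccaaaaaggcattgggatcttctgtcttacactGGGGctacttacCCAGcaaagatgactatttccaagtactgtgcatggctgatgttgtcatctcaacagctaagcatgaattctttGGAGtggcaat
INTS3, chr1:153747279-153747363, plus strand: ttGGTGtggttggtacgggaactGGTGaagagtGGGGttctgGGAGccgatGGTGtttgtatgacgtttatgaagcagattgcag

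The INTS3 exon held 5 matches, all of the GGNG form, a number reached by 24.7% of annotated coding exons within 5 bases of its length. The TMEM145 exon held 7, which 49.4% of exons of like length reached. Neither STXBP5 exon held a match, while 80.8% and 75.8% of annotated coding exons of like length held at least 1. The SEC16A exon went the other way. It was lost although it held a single match, in a sequence with 35.3% G and C.

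Lower inclusion was the main difference among exons. Lost and gained stand here for listed as lower and as higher, with no test. Of 2108 listed exons, 1550 (73.5%) were lower and 558 (26.5%) were higher in siSRSF2 than in siNT1. Lower cassette exons, those over 27 bases, had a median PSI of 88.7% in siNT1 and 58.9% in siSRSF2, and higher cassette exons 34.3% and 56.9%. Falls were also larger than gains: 716 of the lower exons (46.2%) and 135 of the higher exons (24.2%) differed by at least 25 points, beside 37.9% of all listed events. A shift of 50 points or more was listed for 98 lower exons and for 1 higher exon. The smallest listed change of any event was 15.005 points, and 181 exons lay within 16.

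**Figure D1:**
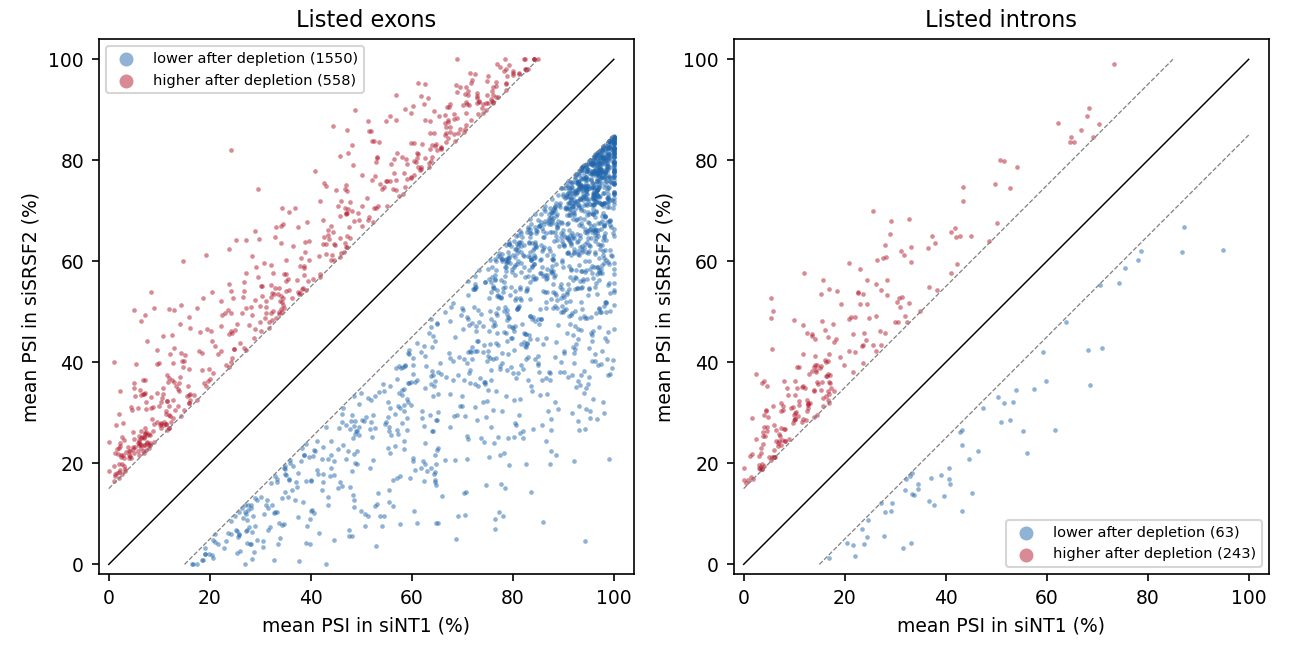
Mean PSI in siNT1 (horizontal, %) against siSRSF2 (vertical, %) for each listed exon (left) and intron (right). Points are single events, blue lower and red higher after depletion, and dashed lines mark a change of 15 points. Most exons (1550 of 2108) lie below the diagonal and most introns (243 of 306) above it.

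The control level limits which way a listed exon can move. All 434 exons at 85 to 95% in siNT1 and all 454 at 95% or more were lower, and all 168 exons under 15% were higher. Between 15% and 85%, where both directions were possible, 662 of 1052 exons (62.9%) were lower. The lean towards loss was seen from 50% upwards, with 59.3% lower at 50 to 70% and 82.2% at 70 to 85%. At 30 to 50% the share was 49.0%, and at 15 to 30% it was 40.6%, so most exons there were higher. The room to fall or rise still differs with control level within this range. In 418 exons PSI passed from above to below 50%, and in 152 from below to above. The 454 exons that were nearly constitutive, at 95% or more in siNT1, kept a median PSI of 75.6%, the lowest at 20.8%.

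**Figure D2:**
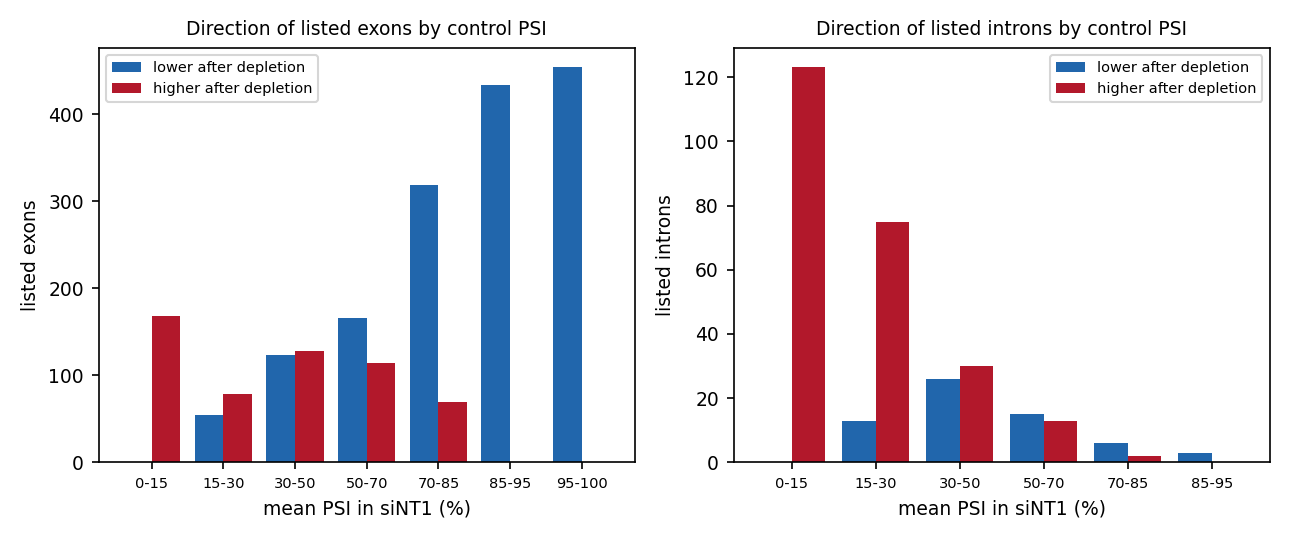
Number of listed exons (left) and introns (right) that were lower (blue) or higher (red) in siSRSF2, by mean PSI in siNT1 (%). All exons from 85% upwards were lower, and between 30% and 50% the numbers were 123 lower and 128 higher.

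The exon most fully lost was the 146-base exon of HAUS4, part of the augmin complex that nucleates microtubules within the spindle, which went from 94.3% in siNT1 to 4.54% in siSRSF2. A 173-base exon of the transmembrane protein gene TMEM145 went from 99.0% to 20.8%. The 57-base exon of the oxygenase gene OGFOD2 went from 85.9% to 8.36%, and siNT2, the control of another set of samples, had it at 84.3%. These 3 exons were thus in most transcripts of control cells and in a minority after depletion. Exons of TMEM41A (92.1% and 20.6%), of RBCK1, a subunit of the linear ubiquitin chain ligase (83.6% and 14.3%), and of KCTD17, a cullin-ligase adaptor (76.4% and 7.06%), were likewise low after depletion. The rhotekin gene RTKN (98.0% and 30.01%), SEC16A of endoplasmic reticulum exit sites (96.8% and 28.9%) and the formin gene FHOD3 (94.3% and 26.8%) kept somewhat more of their inclusion. The other 6 of the 15 largest losses lay in ZNF75D, ZSCAN23, TRIM11, TSPAN17, COQ9 and GMPR2.

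Among exons the largest gain was in STXBP5, which encodes tomosyn, a regulator of SNARE assembly. Its 60-base exon went from 24.3% to 82.1%, and the next exon listed, of 48 bases, from 7.08% to 49.3%. Both exons are coding and both have lengths that keep the reading frame. A 63-base exon of PLOD2, a collagen lysyl hydroxylase, went from 29.5% to 74.3%. Exons of the phospholipase genes DDHD1 (8.44% and 53.8%) and PLD1 (1.11% and 40.1%), of PARP4 (5.09% and 50.4%), of the tRNA methyltransferase gene TRMT11 (6.46% and 48.1%) and of the heat shock factor HSF1 (8.94% and 50.7%) were rare in control cells and were in 40.1% to 53.8% of transcripts after depletion. A 145-base exon of GTDC1 went from 48.8% to 89.9%. CLK4, a kinase that phosphorylates SR proteins, moved both ways, with a 59-base exon outside the coding sequence at 14.7% and 60.2%, and an 88-base exon at 71.1% and 24.8%.

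**Figure D3:**
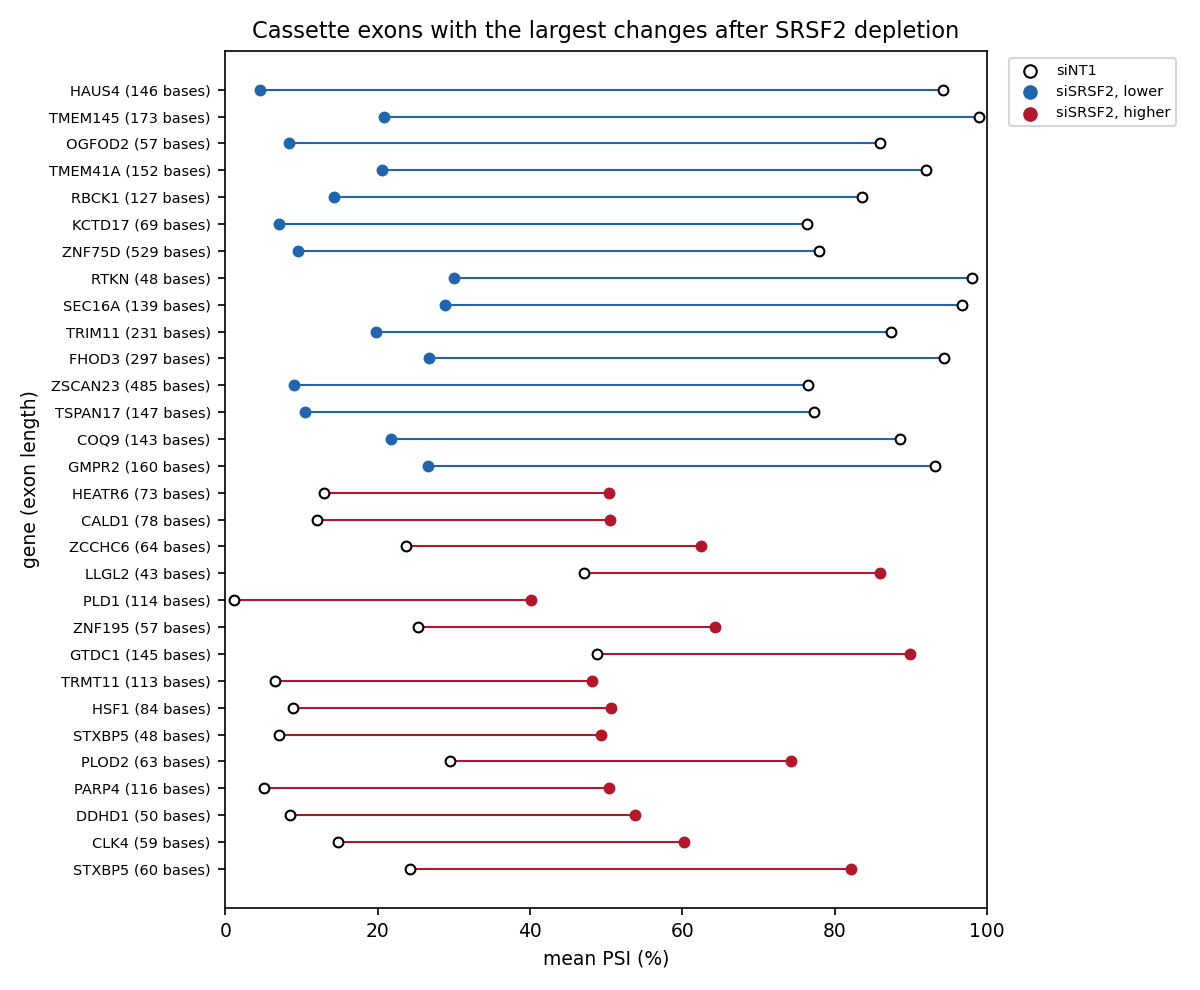
Mean PSI (%) in siNT1 (open circles) and siSRSF2 (filled circles) for the 15 cassette exons with the largest falls (blue) and the 15 with the largest gains (red); each line is 1 exon, with its gene and length. The falls start between 76.4% and 99.0%, and 9 of the 15 gains start below 15%.

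Microexons, of up to 27 bases, went against the main direction: 31 of 42 (73.8%) were higher and 11 lower (26.2%, exact 95% interval 13.9 to 42.0). Among all exons 26.5% were higher. An 18-base microexon of MACF1, which links actin to microtubules, went from 19.3% to 61.3%, and a 21-base microexon of the junction protein gene AFDN from 44.4% to 86.8%. A 24-base microexon of the kinase gene PRKD1 went from 64.8% to 19.9%, and a 9-base microexon of the kinesin gene KIF3A from 70.5% to 29.4%. The lean changed with exon length: 47.3% of exons of 28 to 50 bases were lower, 68.1% of longer ones of up to 100, 81.2% of those of up to 200, 88.2% of those of up to 300 and 80.3% of those over 300. Control PSI was not matched between these length groups. Lengths that are a multiple of 3, which leave the reading frame intact, made up 42.6% of lower and 52.9% of higher exons. Among exons matched to a coding exon they made up 45.0% and 65.1%.

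SRSF2 motifs were denser in the exons that were lost. The 1158 matched lower exons had a median of 5.41 matches per 100 bases (quartiles 3.31 and 7.57), and the 344 matched higher exons 2.38 (1.15 and 4). All annotated internal coding exons had a median of 3.62. Both forms differed, with CCNG at 2.66 against 1.17 and GGNG at 2.26 against 0.956. No match at all was found in 2.59% of lower and in 18.0% of higher exons. Of the lost exons shown above, only INTS3, at 6.10, was above the median of lower exons. TMEM145 (4.12) and OGFOD2 (3.70) were below it and nearer the median of annotated exons, and SEC16A had 0.735. The gained exons shown were below the median of higher exons, with GTDC1 at 2.11, PLOD2 at 1.67 and both STXBP5 exons at 0.

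The share of lost exons went up with motif density. Among exons split by density into 5 groups of about equal size, 47.8%, 69.3%, 83.0%, 91.3% and 94.0% were lower, from the sparsest to the densest. Among exons at 20% to 80% in siNT1, where the control level left both directions open, the shares were 27.7%, 52.5%, 64.4%, 78.8% and 83.2%. Exons with larger falls had slightly denser motifs: the median was 5.33 for falls of 15 to 25 points, 5.56 for 25 to 50 and 5.78 for 50 or more. Their median content of G and C went up too, at 54.3%, 55.8% and 59.1%. Over the 5 groups of all exons it went from 41.6% in the sparsest to 63.3% in the densest. Density and base composition were not separated in these comparisons.

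Base composition moved with the motif. Lower exons had a median of 55.5% G and C and higher exons 45.1%, beside 50% in annotated coding exons. Divided by the number of matches that each exon's own bases would give, density was 1.17 in lower and 0.969 in higher exons. In exons at 20% to 80% in siNT1, this ratio was 1.26 in lower and 0.857 in higher exons in the third poorest in G and C, 1.15 and 1.014 in the middle, and 1.13 in both in the richest. The part of composition in the difference was not tested further. Within their own genes, 684 of 1021 lower exons (67.0%) had more matches per base than the median of the gene's other coding exons, and 108 of 300 higher exons (36.0%) did. Lower exons were also more often coding (84.7% against 61.6%) and longer (medians of 125 and 87 bases), and fewer had an annotated transcript that skips them (65.0% against 89.5%). Among exons at 20% to 80% in siNT1 the coding shares were 70.5% and 70.7% and the shares with an annotated skip 91.2% and 89.96%, so those differences were not seen there, while the median lengths were 121 and 87 bases.

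**Figure D4:**
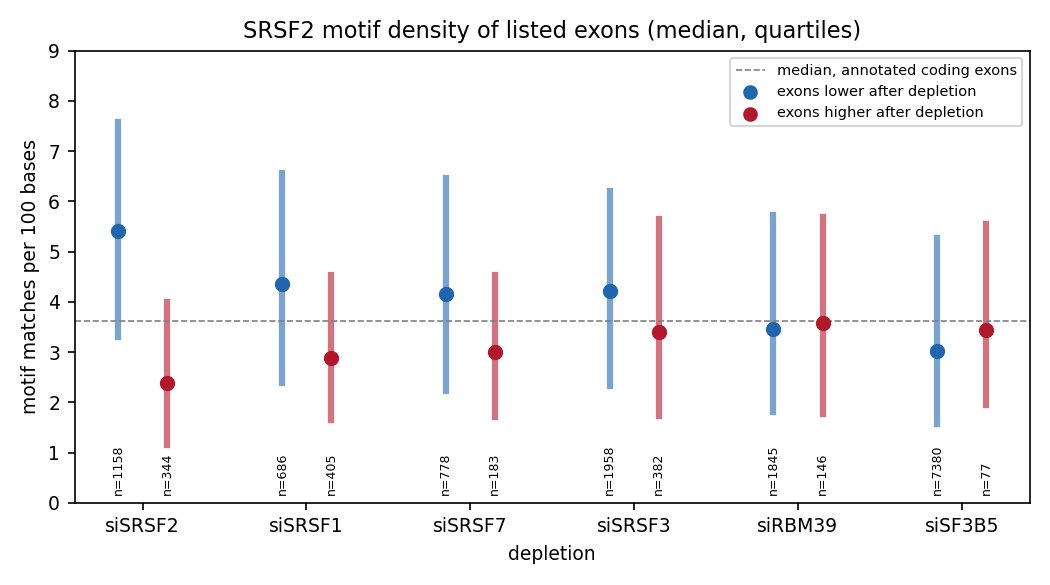
Matches to CCNG and GGNG per 100 bases in exons that were lower (blue) or higher (red) after each depletion; dots are medians over exons, bars span the quartiles, n is the number of exons, and the dashed line is the median of annotated coding exons (3.62). For siSRSF2 the medians are 5.41 and 2.38.

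The same count was made for the other depletions. After depletion of SRSF1 and SRSF7, which share the siNT1 libraries with siSRSF2, the medians for lower and higher exons were 4.35 and 2.88, and 4.17 and 3. Against siNT2 they were 4.21 and 3.41 for SRSF3 and 3.45 and 3.58 for RBM39. For SF3B5, a subunit of the core splicing machinery, they were 3.03 and 3.45, with siNT1 as control. The difference between depletions was not tested.

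Introns moved towards retention. Of 306 listed introns, 243 (79.4%) were higher in siSRSF2, with a median of 14.5% in siNT1 and 38.4% after depletion, and 63 (20.6%) were lower. Among introns at 15% to 85% in siNT1, 120 of 180 (66.7%) were higher. Those at 15 to 30% carried this, with 75 of 88 higher, against 30 of 56 at 30 to 50%, 13 of 28 at 50 to 70% and 2 of 8 at 70 to 85%. A 311-base intron of TMEM234 went from 12.0% to 57.7%, and a 691-base intron of ARHGAP32 from 5.38% to 48.8%. Both were mostly spliced out in control cells. Retention was lower in an 88-base intron of TINF2, a shelterin component at telomeres (61.7% and 26.5%), a 778-base intron of the histone methyltransferase gene EZH1 (56.1% and 22.1%) and a 177-base intron of U2AF1L4, a relative of the 3' splice site factor U2AF1 (43.3% and 10.5%).

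Some retained introns lay beside lost exons. Of 227 higher introns with a known position, 43 (18.9%) adjoined a listed exon, and that exon was lower in all 43, while 73.5% of all listed exons were lower. Introns on both sides of an exon count separately. Of 60 lower introns 5 (8.33%) did, and 4 of these exons were lower. INTS3, a subunit of the Integrator complex, gave the clearest case: the 85-base exon shown above went from 99.8% to 65.6%, the 208-base intron before it from 4.04% to 36.4%, and the 1325-base intron after it from 5.88% to 50.1%. Both introns and the exon lie in the stretch, chr1:153747071-153748688. Over all genes, 66 of the 182 with a higher intron also had a lower exon. Coding exons flanking higher introns had a median of 6.41 motif matches per 100 bases (quartiles 4.78 and 7.97). For the 58 lower introns with a value it was 4.88 (4.27 and 6.97), so the quartiles overlapped widely. Both medians were above the 3.62 of annotated coding exons. Base composition was not taken into account here, and the difference was not tested.

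Of 1924 named genes, 1406 had 1 event and 15 had 6 or more. Of 374 genes with several listed exons, exons were all lower in 243, all higher in 40 and mixed in 91. As 73.5% of all listed exons were lower, many genes would have all exons lower without any link between them. Whether exons of a gene moved together beyond this was not tested. The lysosomal channel gene TPCN2 had 8 exons lower, PHYKPL 7, and IQGAP3, GGCX and SLCO4A1 6 each. In IQGAP3, a scaffold of the cell cortex, exons at 78.4% to 97.8% in siNT1 were at 15.1% to 70.9% after depletion. RECQL4, a DNA helicase, had 2 exons lower and 6 introns higher, DENND4B 2 and 6, and FANCG 2 and 5. CROCC had 6 lower exons, but near-identical pseudogene copies make its values uncertain.

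DNA repair genes were read from a list of 163, of which 44 had an event. The data name only genes with a listed event, so no share over all expressed genes could be set beside such counts. Here and for the lists below, they do not show whether a list was hit more often than other genes. The 19 listed introns of the repair genes were all higher, beside 79.4% of all listed introns. They lay in 6 genes, with RECQL4, FANCG, EME2 and TP53BP1 among them. They were at 3.56% to 31.2% in siNT1 and at 27.2% to 62.1% in siSRSF2, and 11 of the 19 belong to RECQL4 and FANCG. All 123 listed introns under 15% in siNT1 were higher, as were 75 of 88 at 15 to 30%. The direction of the repair introns was thus close to that of all listed introns at such control levels. Of 52 exons, 37 (71.2%) were lower, beside 73.5% of all listed exons, so exon loss in these genes was close to the table's background. The Fanconi anaemia gene FANCE had a 67-base exon at 87.1% and 38.1%, and the checkpoint kinase gene CHEK1 a 130-base exon at 75.7% and 36.5% and a 224-base exon at 79.9% and 46.7%. Exons of ATRIP, the partner of ATR (92.475% and 58.3%), and of ERCC8 (97.9% and 61.2%) were lower. A 58-base exon of POLB, the base excision repair polymerase, was higher (35.7% and 69.9%).

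Of 125 centrosome and spindle genes, 41 had an event. Here 47 of 54 exons (87.0%) were lower, beside 73.5% of all listed exons, with a median absolute change of 23.2 points over the list's events, beside 22.1 for all. HAUS4 led, followed by CEP83, needed for docking of centrioles at the membrane, at 100% and 46.5%, and CEP131 at 86.7% and 33.8%. NEDD1, which brings gamma-tubulin to the centrosome, had 4 exons lower, a 253-base one at 83.9% and 34.3%, and 1 higher. NINL had 4 exons lower and HAUS5, another augmin subunit, 2. CROCC supplied 6 of the 47 and is uncertain. An alternative 5' splice site of the scaffold gene AKAP9 went from 11.0% to 59.5%.

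Chromatin regulators had 31 of 54 exons lower (57.4%) in 46 of 175 genes, below the 73.5% of all listed exons. The arginine methyltransferase gene PRMT2 had exons at 75.4% and 21.3%, 81.2% and 29.5%, and 67.6% and 27.2%. An exon of the histone methyltransferase gene EHMT1 was at 81.9% and 38.7% and one of the DNA demethylase gene TET2 at 96.3% and 55.0%. Kinetochore, checkpoint and cohesin genes had 6 of 9 exons lower (66.7%), with the checkpoint gene MAD1L1 at 88.9% and 30.8%, and an intron of CDCA5, the cohesin regulator sororin, at 2.49% and 37.6%. Cell cycle genes had 6 of 8 lower (75%), with CDK2 at 80.3% and 42.4%, and apoptosis genes 10 of 12 (83.3%), with the DNA fragmentation nuclease gene DFFB at 90.2% and 42.3%.

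Genes of the splicing machinery and its regulators were listed as follows. Of 41 SR proteins and SR-related factors, 4 had an event, and SRSF2 had none. They were an exon of THRAP3 (93.5% and 54.7%), an exon of SRSF10 (37.7% and 53.4%), an exon of NKTR (17.4% and 32.5%) and an intron of CLASRP (32.2% and 16.9%). Of 115 core spliceosome genes 11 had an event, with 4 of 5 exons lower. Among hnRNPs and other regulators 15 of 89 did, with 10 of 17 exons lower. A 69-base exon of HNRNPU was at 98.5% and 51.8%, but siNT2 had it at 84.8%. Splicing kinases and phosphatases had 5 of 7 exons lower, nonsense-mediated decay factors 4 of 7, and transcription elongation factors 1 of 3. For 3' end processing and export factors it was 9 of 12, with the exosome gene EXOSC1 at 93.0% and 31.4%. Among all listed exons 73.5% were lower. The kinases (71.4%) and 3' end factors (75%) were close to that share, and the hnRNP list (58.8%) and decay factors (57.1%) were below it. With so few exons per list, these differences were not tested.

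Of 19 genes known from earlier work as SRSF2 splicing targets, 7 had an event. Besides INTS3 they were EZH2, CASP8, CASP9, BCL2L1, VEGFA and MAPT. The list names genes only, and the events given here were not matched to those of the earlier work, so they can be other events of the same gene. A 68-base exon of EZH2, the Polycomb methyltransferase, went from 3.21% to 18.9%; it matched no single annotated exon. The initiator caspase gene CASP9 had 3 coding exons lower, at 55.5% and 26.4%, 63.8% and 37.4%, and 57.5% and 34.0%. In siNT2 these exons were 12.8 to 16.9 points above siNT1, so the controls also differed there. CASP8 had exons of 45 and 65 bases lower (60.2% and 37.8%, 78.5% and 57.0%) and a 5' splice site that went from 26.3% to 63.9%. A 132-base coding exon of the growth factor gene VEGFA was at 48.8% and 20.2%, an 87-base exon of the tau gene MAPT at 14.1% and 47.7%, and a 5' splice site of the apoptosis regulator BCL2L1 at 56.8% and 73.1%.

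A second control gave a measure of spread. The tables for SRSF3 and RBM39 hold siNT2, and 1058 of the SRSF2 events are in one of them. In these the 2 non-targeting groups differed by a median of 3.72 points, and 95% of the differences were under 14.5, with 42.6 the largest. The siSRSF2 change was larger than the difference between controls in 1047 events (99.0%), though no listed change was under 15 points. The controls were not chosen by their difference, but a siNT2 value exists only for events listed after SRSF3 or RBM39 depletion. When measured from siNT2, 887 events (83.8%) still differed by more than 15 points in the same direction. This held for 601 of 661 lower exons (90.9%) and for 173 of 264 higher exons (65.5%). Most exons listed after SRSF3 or RBM39 depletion were lower than in siNT2, so the siNT2 values are themselves selected. How far this shaped the shares for lower and higher exons was not tested. The labels place siNT1 and siNT2 in different sets, so their difference holds that between the sets too.

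**Figure D5:**
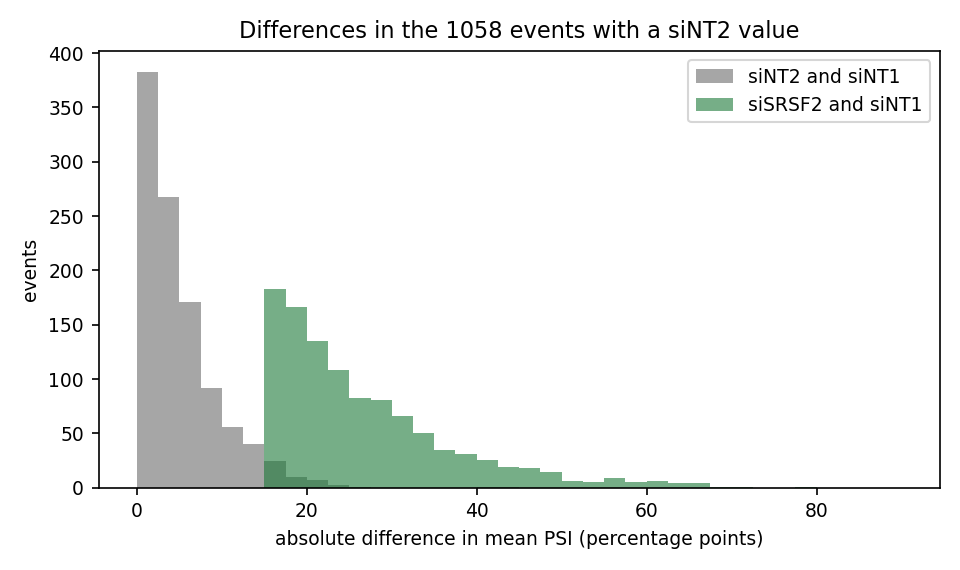
Absolute difference in mean PSI (percentage points) between siNT2 and siNT1 (grey) and between siSRSF2 and siNT1 (green) in the 1058 events with a siNT2 value; bars count events. The grey median is 3.72 points, and the green bars begin at 15, since no smaller change is listed.

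Against tables with other controls, the SRSF2 list shared 558 events with SRSF3 depletion (20.4% of the SRSF2 list and 13.1% of the other) and 694 with RBM39 depletion (25.3% and 17.6%). Of the 530 exons and introns shared with SRSF3, 319 were lower in both, 65 higher in both, 50 lower after SRSF2 and higher after SRSF3 depletion, and 96 the reverse. For RBM39, of 672, the numbers in the same order were 410, 94, 34 and 134. Shared events that were lower in siSRSF2 were thus mostly lower in these tables, and those that were higher in siSRSF2 were also more often lower than higher there. Most exons in both tables were lower, with 2712 lower and 642 higher for SRSF3 and 2471 and 295 for RBM39. With MLN8237, 16 events were shared, 0.584% of the SRSF2 list and 7.80% of the other.

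SRSF1, SRSF7 and SF3B5 depletion use the same siNT1 libraries, so only values are set side by side. The HAUS4 exon was in no other table. The RBCK1 exon was at 14.3% after SRSF2 depletion, 38.3% after SRSF1 and 19.4% after SRSF7 depletion. The 34-base coding exon of PTBP2, a splicing regulator of neurons, was at 61.8% in siNT1. It stood at 92.8% after SRSF2, 37.2% after SRSF1 and 20.3% after SRSF7 depletion. After SF3B5 depletion it was at 86.4%, so it was higher there as well. The AFDN microexon stood at 86.8% after SRSF2, 75.4% after SRSF1 and 25.8% after SRSF7 depletion. The RBCK1 values all lay below siNT1, while those of PTBP2 and AFDN lay on either side of it.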

How the data were processed

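Libraries were stranded mRNA, per the labels' protocols. The authors deposited tables of events with the mean percent spliced in of the control and the treated group, and their difference on the same percent scale, per the file headers. Cutadapt, Bowtie and hg38 are named in the submitters' processing notes; versions, read counts and the rule for listing events are not named there. With 2 samples against 2, an exact permutation test could not go below p = 0.333, and without replicate values none was run.

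Changes were computed as siSRSF2 minus siNT1. Event types came from the identifiers. All alternative splice sites were listed as higher, so their direction carries no information. Of exons 1535 of 2108 (72.8%) and of introns 287 of 306 (93.8%) matched a single GENCODE release 29 exon or intron of that length in the gene; 1502 exons over 27 bases had transcript sequence. Motif counts were tested on simulated data. Intervals are exact Clopper-Pearson and cover counting only; events are not replicates. Python 3.11.15, pandas 2.3.3 and SciPy 1.17.1 were used.

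The genes named are the 15 cassette exons with the largest change each way, 8 introns up and 5 down, 6 sites of each kind, 4 microexons, up to 6 events per gene list, all events of known SRSF2 targets, and genes with 6 or more events; further members of the repair and centrosome lists and the INTS3 sequence were chosen after their values were seen. The members and the 14 lists, with 1141 genes, were chosen with earlier results of these data known. Alternatives were larger changes, 1 event per gene, mid-range control PSI, other motif measures and overlap by gene. Some events and sequences that these rules select are not reported here.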

Additional observations from a re-analysis of the deposited data

How the results depend on the processing

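The directions of the values in this paragraph held under the alternatives given, while sizes moved; the coding and annotated-skip shares of exons, described above, did not keep theirs at mid-range control PSI. Among changes of at least 25 points, 85.3% of cassette exons were lower (74.5% in all) and 84.6% of introns higher (79.4%). Among events at 20% to 80% in siNT1 these shares were 60.7% and 58.7%. The difference between lower and higher exons in the percent of lengths that are a multiple of 3 was -10.3 points, and -16.9 at changes of at least 25 points. The difference in motif density was 3.02 per 100 bases, 6.30 with 4 motifs in place of the pair, and 0.20 as a ratio of observed to composition-based matches, which is another scale; restriction to exons with an annotated skip, chosen after seeing the data, gave 2.99. With at least 25 points in both tables the overlap with SRSF3 was 11.4% of the SRSF2 list and 6.54% of the other, and by gene 48.2% and 33.1%. For RBM39 it was 14.5% and 10.7%, and by gene 50.99% and 37.8%. The causes were not tested.

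No paired analysis was possible because the tables hold only group means; leaving out a replicate was not run for the same reason. Unknown depth limits every single PSI, and exons of the same gene share reads.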

Other observations

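Alternative splice sites made up 163 events at 3' ends and 161 at 5' ends of introns. Higher use was listed for a 3' splice site of FAM208A, a subunit of the HUSH silencing complex, at 20.9% in siNT1 and 79.4% in siSRSF2, of PIDD1, which activates caspase-2, at 38.9% and 84.1%, and of the translation initiation factor gene EIF4B at 14.6% and 58.6%. Among 5' splice sites, the scaffold gene DLG1 had one at 26.9% and 72.5%, NAV1 one at 19.8% and 66.5%, and CTIF, a translation factor that binds the nuclear cap-binding complex, one at 33.3% and 74.5%. Sites of RPSA and RPL41 also ranked high, but both genes have many near-identical copies. The site gained was the first of its series, which has a listed length of 0, in 77 of the 3' events (47.2%) and in 103 of the 5' events (64.0%).

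Among the 15 genes with 6 or more events, CUX1 was the one with all of its listed exons higher. The 6 exons, of 102 to 8528 bases, were at 15.5% to 38.7% in siNT1 and 33.4% to 59.1% in siSRSF2. Of the 2738 events, 923 (33.7%) were in none of the other 6 tables; their median absolute change was 20.3 points, and 23.0 for the rest. Among these 923, 382 of 573 exons were lower.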
